A study of Mus musculus with 8 samples.

Results

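Cholesterol synthesis was examined through 27 genes chosen by name. They were 18 enzymes of the route from acetyl-CoA to cholesterol, genes that control the transcription factor SREBP2, a few of its other target genes, and Mylip. HMG-CoA reductase was not among them. All 27 had a probe on the array, and 26 of them passed the filter on dim probes, among 20165 features tested. Liver RNA had been taken from 8 male C57BL/6 mice, bought at 5 weeks of age and given free access to 1 of the diets for 3 or 9 months. The normal diet (ND) held 4.8% fat, 50.21% carbohydrate and 20.78% protein at 3.8 kcal/g, and the high fat diet (HFD, D12231) held 58% fat, 25.5% carbohydrate and 16.4% protein at 5.2 kcal/g. There were 4 groups (ND 3 months, HFD 3 months, ND 9 months and HFD 9 months) of 2 mice each, with 1 Agilent array per mouse and a single dye, Cy3. The mice carried no transgene or deletion that the labels name, and the mice of 9 months were also the older ones. The time of day at which the livers were taken and whether the mice had fed are not given in the sources used here.

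Cholesterol is built in the cytosol and endoplasmic reticulum: acetyl-CoA is joined to HMG-CoA, turned into mevalonate and isoprenoid units, condensed to squalene, closed to the ring of lanosterol and trimmed to cholesterol. When membrane sterol is low, SCAP carries SREBP2 from the endoplasmic reticulum to the Golgi, where proteases free its active part, which switches on most genes of the pathway. When sterol is high, INSIG proteins hold SCAP back. The liver is a main site of this synthesis, and in mice it runs higher in the fed dark phase than in the light phase.

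The promoters of 4 members are shown because 3 of them belong to genes that fell with time on ND, described further on, and because that of Hmgcs1 was the only one among the members that held the 9-letter motif searched. SREBP2 binds the sterol regulatory element, often beside the factor NF-Y, which binds CCAAT. The sequences are the 250 bases before the gene's start in RefSeq's GRCm38.p6, 5′ to 3′ on the gene's own strand, and the table had an entry for 23 of the 27 members, with none for Fdps, Fdft1, Sqle and Stard4. Capitals mark matches to TCACNCCA, which lies inside the 9-letter TCACNCCAC, and to CCAAT or ATTGG, its reverse complement.
Hmgcs1, chr13:119690101-119690350, plus strand: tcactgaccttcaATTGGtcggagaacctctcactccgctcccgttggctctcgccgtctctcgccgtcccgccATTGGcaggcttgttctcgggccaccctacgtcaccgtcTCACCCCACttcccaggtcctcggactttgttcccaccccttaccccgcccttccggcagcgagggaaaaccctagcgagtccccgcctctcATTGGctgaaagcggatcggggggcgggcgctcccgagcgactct
Mvk, chr5:114444019-114444268, plus strand: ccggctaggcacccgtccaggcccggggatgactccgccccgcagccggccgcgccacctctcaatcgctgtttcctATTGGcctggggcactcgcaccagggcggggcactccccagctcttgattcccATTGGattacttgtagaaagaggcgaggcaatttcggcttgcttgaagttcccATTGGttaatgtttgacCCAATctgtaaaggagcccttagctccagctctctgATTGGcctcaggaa
Msmo1, chr8:64733579-64733828, minus strand: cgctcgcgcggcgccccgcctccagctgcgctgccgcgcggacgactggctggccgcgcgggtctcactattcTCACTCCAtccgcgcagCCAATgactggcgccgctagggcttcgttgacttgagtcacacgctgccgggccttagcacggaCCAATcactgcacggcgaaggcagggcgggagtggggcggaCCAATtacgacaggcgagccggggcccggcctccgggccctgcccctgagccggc
Insig1, chr5:28071162-28071411, plus strand: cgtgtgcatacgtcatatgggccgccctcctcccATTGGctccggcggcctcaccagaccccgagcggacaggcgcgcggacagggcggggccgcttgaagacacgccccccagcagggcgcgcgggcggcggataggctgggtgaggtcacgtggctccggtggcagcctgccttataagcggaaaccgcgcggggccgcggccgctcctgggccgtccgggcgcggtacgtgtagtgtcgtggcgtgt
In that of Hmgcs1 the motif TCACNCCAC began 137 bases before the start, between 3 matches to CCAAT. The promoter of Mvk held 5 matches to CCAAT and none to either sterol motif, while that of Msmo1 held TCACNCCA and 3 matches to CCAAT. Insig1 had 1 match to CCAAT in this window. A gene was counted if any of its promoters held a match on either strand. CCAAT was found for 20 of the 23 members (87.0%), against 37.5% of 27025 genes. TCACNCCA was found in 3 of the 23 (13.0%; Hmgcs1, Msmo1 and Srebf2) against 4.2%, and TCACNCCAC in 1 (4.35%) against 1.22%. The motif GGGCGG of the factor Sp1, not capitalised above, was in 20 of the 23 (87.0%) against 35.4%. Acat2, another gene that fell with time on ND, had no match to CCAAT or to the sterol motifs there. These matches are descriptions of sequence and not binding sites.

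Signals are log2 values relative to the 75th percentile of the same array, so that 0 is the level of that percentile; a difference of 1 is a doubling. All 26 members that passed the filter were well above background on all 8 arrays. Npc1l1, which takes up sterol in the gut, was above background on 2 of 8 arrays, 1 of ND 3 months and 1 of HFD 3 months, and was not tested. The intensity at the 75th percentile ranged from 482 to 597 for mice on ND and from 185 to 428 for mice on HFD. The lowest belonged to HFD 9 months mouse 2, whose array had 40.6% of its spots above background, the smallest share. Each diet had a slide of its own, so diet and slide cannot be told apart. Row 1 of either slide held the mice of 3 months and row 2 those of 9 months, so time on the diet, age and row cannot be told apart either. Hepatocyte markers were all present, 10 of 10 above background on all arrays. In whole liver, fewer cells of a type and less RNA per cell cannot be told apart.

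**Figure D1:**
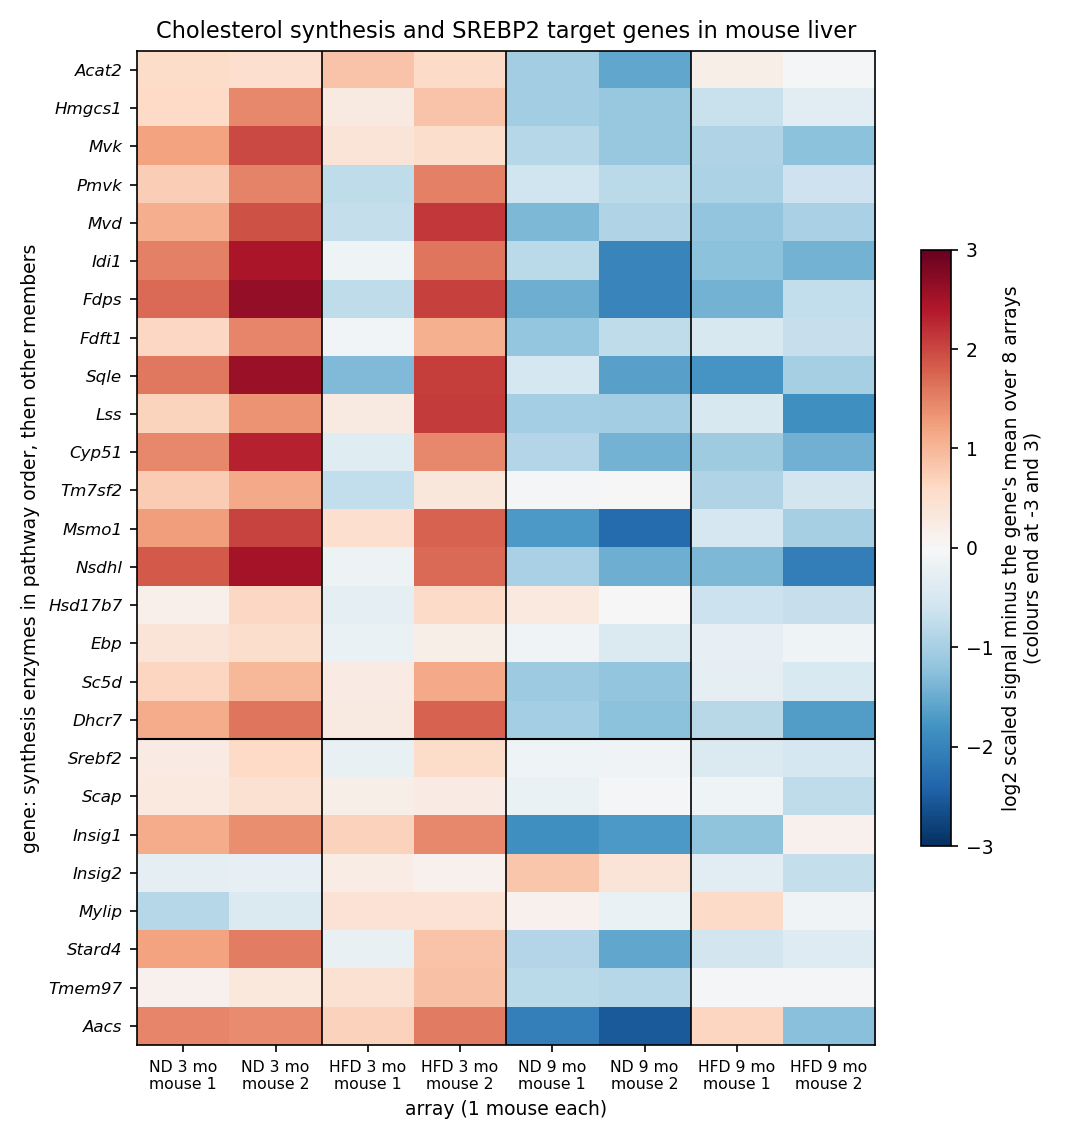
Scaled log2 signal of each of the 26 members (rows, in pathway order) on each of the 8 arrays (columns, 2 mice per group), shown relative to the gene's own mean over the arrays. For 17 of 26 members all 4 arrays of 3 months lie above all 4 of 9 months, and 24 of 26 are lower in the first HFD 3 months mouse than in the second.

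On ND the cholesterol genes were much lower after 9 months than after 3 months. Of 26 members, 24 had a lower mean and 23 were lower in both mice of 9 months than in both of 3 months; across all features 37.1% were lower without overlap. By limma with Benjamini-Hochberg adjustment, 4 members fell at an adjusted p under 0.05 (Acat2, Mvk, Msmo1 and Insig1) and 0 rose, against 0.595% of all features called lower and 0.441% called higher. At an unadjusted p under 0.05, 21 members were lower and 1 was higher, where 9.38% and 6.48% of all features were. The median log2 difference was -2.07 over the 26 members and -0.07 over all features. Over the 18 synthesis enzymes it was -2.29, and the mean was lower at 9 months for 18 of 18. With the 75th percentile taken over probes above background on all arrays, the median of all features moved to 0.07 and the calls over all features from 89 higher and 120 lower to 95 higher and 64 lower. Acat2, Mvk and Msmo1 were still called lower there, and Insig1 was not.

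The first enzymes listed lead from acetyl-CoA to HMG-CoA. The reductase that turns HMG-CoA into mevalonate was not among the members. Acat2, the cytosolic thiolase that makes acetoacetyl-CoA, read 5.86 and 5.82 in the ND mice of 3 months and 4.26 and 3.75 in those of 9 months. It fell by 1.83 ± 0.23 (log2 difference ± SE, 2 mice per group here and below), which is 3.56-fold (adjusted p = 0.0331). Hmgcs1, the HMG-CoA synthase whose promoter held the full motif, read 6.4 and 7.25 at 3 months and 4.76 and 4.67 at 9 months, a difference of -2.11 ± 0.34 that missed the threshold (adjusted p = 0.0551). For both genes the mice of 3 months lay above those of 9 months.

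Next come the kinases and the isoprenoid steps. Mvk, mevalonate kinase, read 4.42 and 5.18 at 3 months and 2.37 and 2.08 at 9 months and fell by 2.58 ± 0.29, or 5.96-fold (adjusted p = 0.029). Pmvk, the next kinase, read 5.27 and 6.02 against 3.94 and 3.72, and Mvd, the decarboxylase after it, 1.16 and 1.98 against -1.28 and -0.82. Neither passed the test, although the mice of 3 and 9 months did not overlap. Idi1, which interconverts the small isoprenoid units, read 5.28 and 6.21 against 2.96 and 1.78 (-3.38 ± 0.67, adjusted p = 0.0852). Fdps, which joins such units to farnesyl diphosphate, showed the largest difference of the set without passing: 6.42 and 7.36 against 3.26 and 2.75, or -3.89 ± 0.88 (adjusted p = 0.109). Its SE was 0.88 against 0.29 for Mvk, and the fit takes the spread from all 4 groups.

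Squalene and the first sterols follow. Fdft1, squalene synthase, read 3.46 and 4.31 at 3 months and 1.68 and 2.08 at 9 months. Sqle, the squalene epoxidase and a rate-controlling step, read 3.81 and 4.83 against 1.71 and 0.61, a difference of -3.16 ± 1.08 (adjusted p = 0.235). Lss, which closes the ring to lanosterol, read 0.8 and 1.46 against -0.89 and -0.93. None of these passed the test, and none overlapped. Cyp51, the first demethylase of lanosterol, read 1.61 and 2.47 against -0.7 and -1.25 (-3.02 ± 0.62, adjusted p = 0.0916).

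The enzymes that trim lanosterol to cholesterol differed in how far they lay apart. Msmo1, which oxidises the methyl groups next to the hydroxyl end, read 6.15 and 6.91 at 3 months and 3.17 and 2.58 at 9 months. It fell by 3.66 ± 0.49, or 12.6-fold (adjusted p = 0.0374), the largest change among the 4 called. Its partner dehydrogenase Nsdhl read 2.35 and 3 against -0.46 and -0.97 (-3.39 ± 0.62, adjusted p = 0.0739). Sc5d, a sterol desaturase, read 6.63 and 6.98 against 4.89 and 4.79 (-1.96 ± 0.31, adjusted p = 0.0538), and Dhcr7, the reductase of the last step, 2.23 and 2.73 against 0.11 and -0.09. The other members of this stretch lay closer together. Tm7sf2, a sterol reductase, read 7 and 7.37 against 6.2 and 6.25, and Ebp, the isomerase, 7.87 and 8.03 against 7.39 and 7.06. Hsd17b7, the keto reductase, was the only enzyme whose mice overlapped, at 2.54 and 3.01 against 2.68 and 2.38.

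Among the control genes, the INSIG genes differed. Insig1, itself a target of SREBP2, read 2.67 and 2.95 at 3 months and -0.27 and -0.17 at 9 months, and fell by 3.03 ± 0.46, or 8.19-fold (adjusted p = 0.0475). Insig2, whose liver transcript is known to be lowered by insulin, read 5.3 and 5.34 at 3 months and 6.43 and 5.98 at 9 months, a difference of 0.88 ± 0.23 (adjusted p = 0.15). Srebf2, which encodes SREBP2, read -0.95 and -0.59 against -1.31 and -1.29, and Scap, its escort, 5.81 and 5.99 against 5.33 and 5.46. Mylip is no control gene of SREBP2 but a ubiquitin ligase, induced by LXR, that marks lipoprotein receptors for degradation. It was higher at 9 months (0.32 and 0) than at 3 months (-0.65 and -0.23), without passing. Insig2 and Mylip were the 2 members with a higher mean at 9 months on ND.

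Of the other targets, Stard4, a carrier of sterol between membranes, read 4.21 and 4.53 at 3 months and 2.12 and 1.44 at 9 months (-2.59 ± 0.4, adjusted p = 0.0514). Tmem97, a sterol-regulated membrane protein also known as the sigma-2 receptor, read 4.46 and 4.65 against 3.54 and 3.48. Aacs, which activates the ketone body acetoacetate for lipid synthesis, read 5.09 and 5.04 against 1.57 and 1.1. Its difference of -3.73 ± 0.62 was the second largest of the set and missed the threshold (adjusted p = 0.0586).

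**Figure D2:**
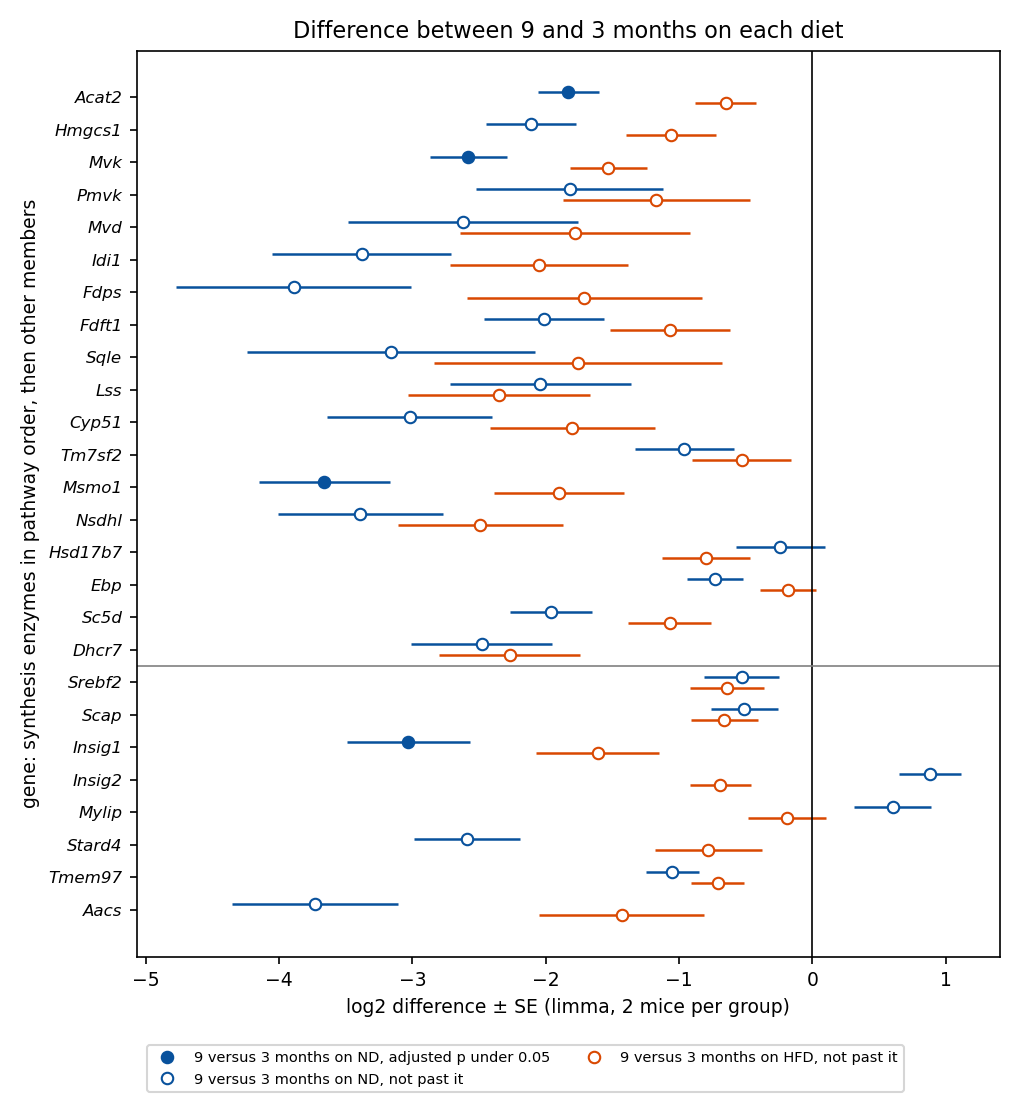
Log2 difference of 9 against 3 months for each of the 26 members, on ND and on HFD, with error bars of 1 SE from the limma fit over all 8 arrays. On ND 24 of 26 points lie below 0 and on HFD 26 of 26; the 4 members past an adjusted p of 0.05 are all on ND.

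The calls rested on few mice. With any 1 of the 4 ND mice left out, an arm had 1 mouse, taken to vary like the other groups. The calls of the members were lost there, as were most calls over all features. Acat2, Mvk and Insig1 also lost their calls without either HFD 3 months mouse, and Msmo1 without either HFD 9 months mouse, so each was called in 2 of the 8 fits. Sc5d was called without either HFD 3 months mouse, where fewer features were called over all. Aacs was called without either HFD 9 months mouse, where more features were called over all. The values moved less: from -2.09 to -1.58 for Acat2, -2.96 to -2.19 for Mvk, -4.04 to -3.28 for Msmo1 and -3.17 to -2.89 for Insig1, with adjusted p up to 0.299, 0.213, 0.288 and 0.346. In all 8 fits 24 of 26 members were lower at 9 months, with a median between -2.48 and -1.82. The replicate number was also the array's column on the slide. With it as a block 0 of 26 members passed, and over all features 36 were called higher and 20 lower. Within column 1, with 1 mouse per group and no test, 23 of 26 were lower (median -1.76), and within column 2, 24 of 26 (median -2.48).

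Values of other genes moved with this difference, and their part in it was not tested. Of 14 clock genes tested, Arntl, an activator of the circadian clock, rose by 2.02 ± 0.26 (adjusted p = 0.0331) between 3 and 9 months on ND. Its targets Dbp (fell by 2.83 ± 0.23, adjusted p = 0.0146) and Bhlhe40 (fell by 2.46 ± 0.32, adjusted p = 0.0331) went the other way. Dbp read 6.43 and 6.06 in the ND mice of 3 months and 3.39 and 3.45 in those of 9 months, against 5.94 to 6.54 on the 4 HFD arrays. The ND mice of 9 months thus stood apart from the other mice for Dbp. On HFD, Arntl, Dbp and Bhlhe40 differed by 0.2, -0.32 and -0.26 between 3 and 9 months, without a call. Summed levels are the log2 of added unlogged signals, so bright genes such as Dbp weigh most. The clock genes summed to 7.7 and 7.45 in the ND mice of 3 months and 6.31 and 6.91 in those of 9 months. Of the 14, 9 had a lower mean at 9 months on ND and 5 a higher one. The summed level of 7 macrophage markers was 5.86 to 6.15 in the ND mice of 3 months and 6.96 to 8.63 in those of 9 months. Of the 7, 0 were called, and Marco differed most (5.72 ± 1.12, adjusted p = 0.0852). That of the 10 hepatocyte markers was 12.12 and 12.24 at 3 months and 12.01 and 11.98 at 9 months, again with 0 called. Of 5 adipocyte markers, Adipoq, Lep and Plin1 did not pass the filter. The summed level of the remaining pair, Cfd and Fabp4, was 3.68 and 2.58 at 3 months and 1.38 and 0.4 at 9 months. Cfd, which encodes the complement factor adipsin, differed by -4.68 ± 1.1 without passing (adjusted p = 0.117), and Fabp4 by -0.23 ± 0.46 (adjusted p = 0.878).

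On HFD the members were also lower at 9 months, without a call. All 26 members had a lower mean at 9 months, and 20 of 26 were lower in both mice, against 23.3% of all features. No member passed an adjusted p of 0.05 by limma (0 of 26), and 0.00496% of all features were called in each direction; at an unadjusted p under 0.05 there were 15 members lower and 0 higher, where 9.01% and 6.46% of all features were. The median difference was -1.12 over the members, -1.62 over the synthesis enzymes and 0 over all features. Nsdhl was lowest (-2.49 ± 0.62, adjusted p = 0.197), at 0.35 and 2.2 against -0.85 and -1.58. Lss followed (-2.35 ± 0.68, adjusted p = 0.228), then Dhcr7 (-2.27 ± 0.53, adjusted p = 0.182), at 1.4 and 2.9 against 0.29 and -0.54. For Insig1 the mice of 3 months read 2.27 and 3 and those of 9 months 0.37 and 1.68. Acat2 lay closest to its 3-month level among the 4 genes that fell on ND: 6.16 and 5.89 against 5.49 and 5.26, a difference of -0.65 ± 0.23 (adjusted p = 0.287). Without HFD 3 months mouse 1 the median of the members was -1.62, and without mouse 2 it was -0.63. Within column 1 of the slides it was -0.52 and within column 2 it was -1.67. Without HFD 9 months mouse 1, 2 members (Scap and Aacs) were called lower, and the calls over all features went from 2 to 1933. All 5 lipid-associated macrophage markers were higher at 9 months without overlap, where 21% of all features were, with 0 called. Their summed level was 3.11 and 3.7 at 3 months and 5.36 and 5.09 at 9 months. That of the hepatocyte markers was 11.65 and 11.57 against 11.59 and 12.07. The part of these markers in the members' differences was not tested.

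Across both diets the durations separated for most members. For 17 of 26 members all 4 arrays of 3 months lay above all 4 of 9 months, a pattern seen in 6.29% of all features. The 9 exceptions were Pmvk, Fdps, Sqle, Tm7sf2, Hsd17b7, Ebp, Srebf2, Insig2 and Mylip. For Pmvk, Fdps and Sqle the low array was HFD 3 months mouse 1, at 3.78, 3.97 and 0.92. The highest group mean was that of ND 3 months in 21 members, HFD 3 months in 4 (Acat2, Lss, Mylip and Tmem97) and ND 9 months in 1 (Insig2). The lowest was ND 9 months in 13, HFD 9 months in 12 and ND 3 months in 1 (Mylip).

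**Figure D3:**
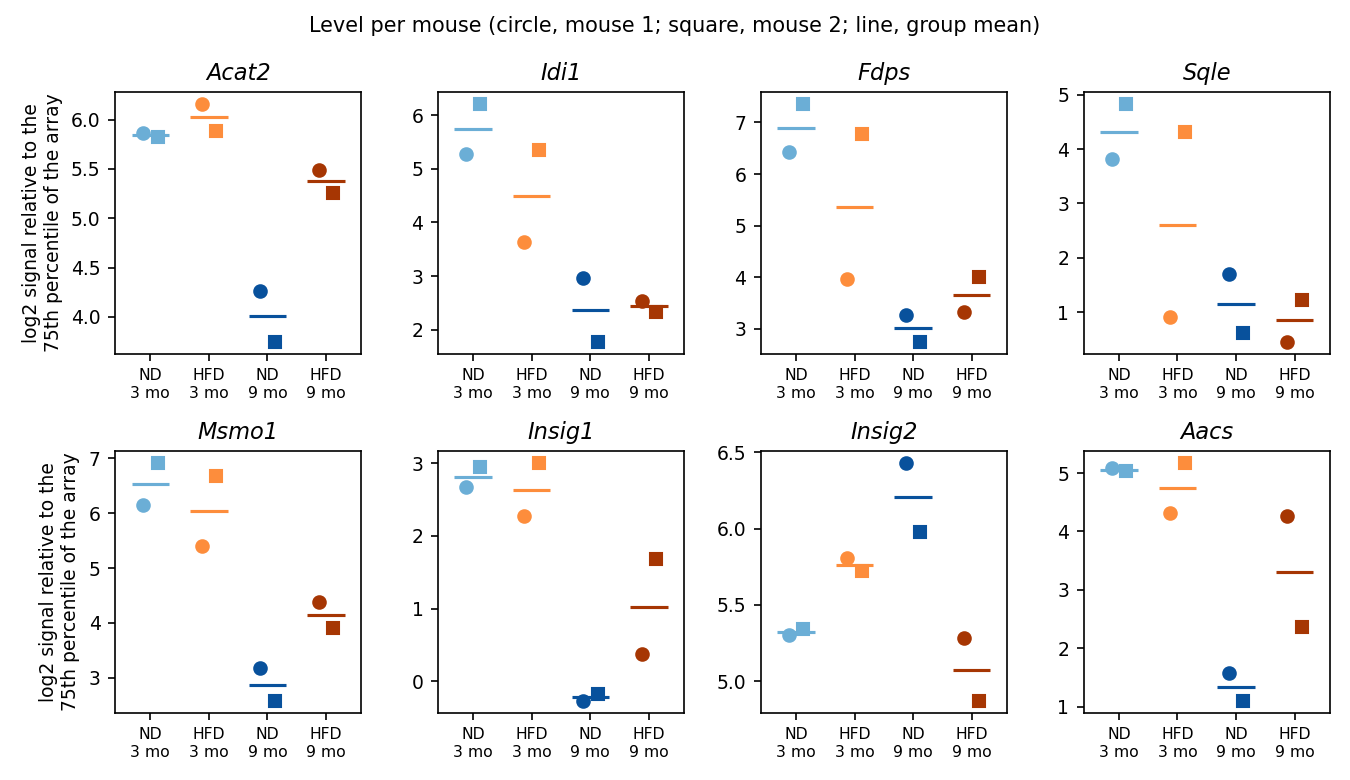
Scaled log2 signal of selected members on each array, 1 point per mouse, by group. Acat2, Msmo1, Insig1 and Aacs have their lowest group mean (line) in the ND mice of 9 months, where Insig2 has its highest; for Fdps and Sqle HFD 3 months mouse 1 lies far below mouse 2, at 3.97 and 0.92.

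At 3 months the mice of a group differed from each other for most members, most of all in the HFD 3 months group. There 24 of 26 members were higher in mouse 2 than in mouse 1, by a median of 0.98, against 49.3% of all features and a median absolute gap of 0.25. Gaps over 1 were found for 13 members, against 9.83% of all features. The widest was that of Sqle, 0.92 in mouse 1 and 4.31 in mouse 2. Mvd read -0.63 and 2.2, Fdps 3.97 and 6.77, Pmvk 3.78 and 6.04 and Idi1 3.63 and 5.36. In mouse 1, 17 of 18 enzymes lay below both ND mice of 3 months. In mouse 2, 14 of 18 lay at or above the lower of those ND mice. Acat2 went the other way, with 6.16 in mouse 1 and 5.89 in mouse 2, and Mylip was nearly level at 0.62 and 0.63.

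The ND mice of 3 months differed in the same sense but by less: 24 of 26 members were higher in mouse 2, by a median of 0.49, with Sqle the widest at 1.02. Over all features 49.1% were higher in mouse 2, with a median absolute gap of 0.14. At 9 months the gaps were smaller for most members. On ND, 20 of 26 were lower in mouse 2, by a median of -0.29, with Idi1 the widest at -1.18. Over all features 48.9% were higher in mouse 2. The median absolute gap was 0.32 over the members and 0.24 over all features. Gaps over 1 were found for 2 members, against 10% of all features. On HFD, 16 of 26 were lower in mouse 2, by a median of -0.19, and 52.1% of all features were higher. The median absolute gap was 0.35 over the members and 0.43 over all features. Gaps over 1 were found for 3 members of HFD 9 months, against 16.7% of all features. The gaps over 1 there were those of Aacs, 4.27 in mouse 1 and 2.36 in mouse 2, Lss, -0.37 and -1.72, and Insig1, 0.37 and 1.68. The replicate numbers name separate animals, but mouse 1 of each group lay in column 1 of its slide and mouse 2 in column 2. The gap between the mice of a group and that between the columns therefore cannot be told apart.

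**Figure D4:**
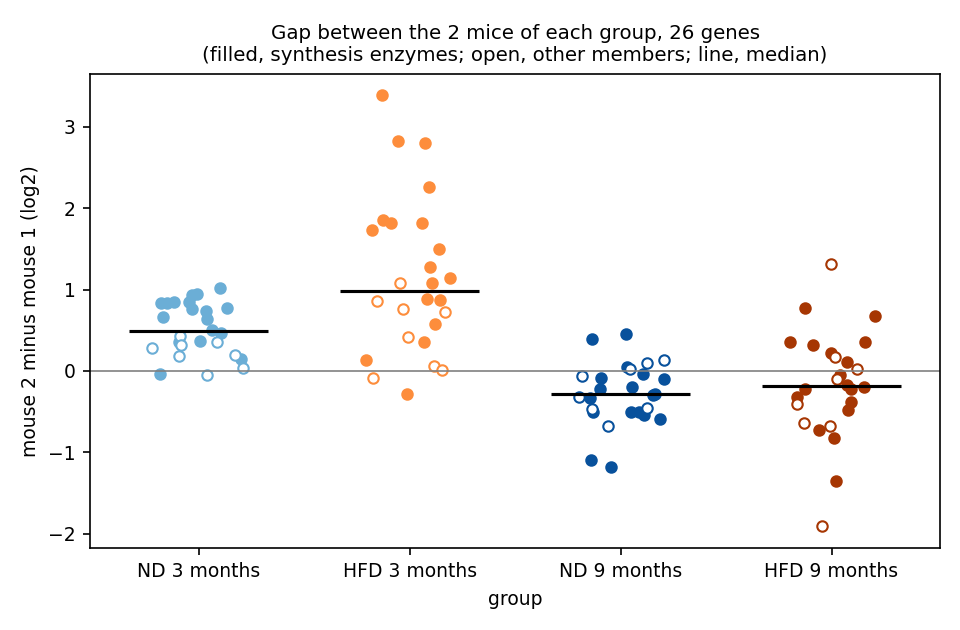
Difference of mouse 2 minus mouse 1 in scaled log2 signal for each of the 26 members, in each of the 4 groups. At 3 months 24 of 26 members are higher in mouse 2 on either diet, and 13 gaps of HFD 3 months exceed 1.

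Members varied together over the 8 arrays, given here as a description: the points share arrays and the group differences above. Over the 153 pairs of the 18 enzymes the median Pearson correlation was 0.892, and 0.818 after the group means were taken out. The gene nearest to the mean of the other enzymes was Cyp51 (0.992), followed by Idi1 (0.99). Acat2 (0.63) and Hsd17b7 (0.698) were the least alike among the enzymes. Insig2 (-0.2) and Mylip (-0.344) had negative values. After the group means are removed, what is left is the gaps between the 2 mice of each group.

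Diet at 3 months changed no member beyond the threshold. By limma 0 of 26 passed, against 1.51% of all features called higher and 3.67% called lower; at an unadjusted p under 0.05 there were 3 lower (Mvk, Tm7sf2 and Stard4) and 1 higher (Mylip), where 14.8% and 11.5% of all features were. The mean was lower on HFD for 21 of 26, with a median of -0.46 against -0.01 over all features. Without overlap, 6 were lower (Mvk, Tm7sf2, Nsdhl, Ebp, Scap and Stard4) and 4 higher (Acat2, Insig2, Mylip and Tmem97), where 35.4% and 35.6% of all features were. Mvk read 4.42 and 5.18 on ND and 3.61 and 3.75 on HFD (-1.12 ± 0.29, adjusted p = 0.0801). Mylip read -0.65 and -0.23 on ND and 0.62 and 0.63 on HFD (1.07 ± 0.29, adjusted p = 0.0844). Both differences exceeded the gap between the mice of a group. Tm7sf2 read 7 and 7.37 on ND and 5.51 and 6.59 on HFD (-1.14 ± 0.37, adjusted p = 0.122). Stard4 read 4.21 and 4.53 on ND and 2.76 and 3.84 on HFD (-1.07 ± 0.4, adjusted p = 0.163).

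The lower median at 3 months rested on 1 mouse. Without HFD 3 months mouse 1 it was 0.08, with 11 of 26 members lower, and without mouse 2 it was -0.92. Sqle, lowest of all with both mice at -1.71 ± 1.08 (adjusted p = 0.35), was at -0.02 without mouse 1 and at -3.4 without mouse 2. Fdps was at -0.12 and -2.92, and Mvd at 0.63 and -2.2. Without ND 3 months mouse 1 the median was -0.73, and without mouse 2 it was -0.13. Within column 1 of the slides it was -0.73 and within column 2 it was -0.14. Tm7sf2 was called lower without HFD 3 months mouse 2, a fit that left 1 HFD mouse at 3 months. Mylip was called higher without either HFD 9 months mouse, where more features were called over all as well. The summed level of 5 lipid-associated macrophage markers, 2 of them called higher at 3 months, was 2.78 to 2.89 on ND and 3.11 to 3.7 on HFD.

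Other cell type markers also lay apart between the diets at 3 months. Over all features 35.6% were higher and 35.4% lower on HFD without overlap. The summed level of the 10 hepatocyte markers was 12.12 and 12.24 on ND and 11.65 and 11.57 on HFD, with 7 of 10 lower without overlap and 0 called. That of 7 Kupffer cell and macrophage markers was 6.15 and 5.86 on ND and 6.98 and 6.63 on HFD, with 6 of 7 higher without overlap and 0 called. All 4 stellate cell markers tested were higher without overlap, with 0 called. Of 5 endothelial markers 4 were higher without overlap, and 1 of them, Lyve1, was called (2.28 ± 0.34, adjusted p = 0.0248). The other, Kdr, was lower without overlap (-1.17 ± 0.36, adjusted p = 0.111). The adipocyte markers Cfd and Fabp4 summed to 3.68 and 2.58 on ND and 4.87 and 4.34 on HFD. The part of these cell types in the members' differences was not tested.

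At 9 months the members did not differ between the diets in a common direction. The mean was higher on HFD for 14 members and lower for 12, with a median of 0.07 against 0.02 over all features. Within columns 1 and 2 of the slides the median was 0.12 and 0.14. By limma 1 member rose and 1 fell, against 3.56% of all features called higher and 4.73% called lower, so the share of members called was near that of all features. At an unadjusted p under 0.05 there were 5 members higher and 1 lower, where 28.7% of all features differed in either direction. Acat2 rose by 1.37 ± 0.23, or 2.58-fold (adjusted p = 0.0249), from 4.26 and 3.75 on ND to 5.49 and 5.26 on HFD. Insig2 fell by 1.14 ± 0.23, or 2.2-fold (adjusted p = 0.0389), from 6.43 and 5.98 to 5.28 and 4.87. These are the first enzyme of the pathway and a brake on it.

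Without overlap 10 members were higher on HFD at 9 months and 4 lower, where 28.5% and 26.1% of all features were. Aacs read 1.57 and 1.1 on ND and 4.27 and 2.36 on HFD (1.98 ± 0.62, adjusted p = 0.101). Msmo1 read 3.17 and 2.58 on ND and 4.38 and 3.9 on HFD (1.27 ± 0.49, adjusted p = 0.156). Insig1 read -0.27 and -0.17 on ND and 0.37 and 1.68 on HFD (1.24 ± 0.46, adjusted p = 0.139). All 3 were higher in both HFD mice without passing. Tmem97 came nearest to a call, at 3.54 and 3.48 on ND and 4.28 and 4.3 on HFD (0.78 ± 0.2, adjusted p = 0.0672). Fdps (0.65) and Fdft1 (0.38) were also higher without overlap. Mvk differed by -0.07 (95% interval -0.79 to 0.64), Idi1 by 0.07 (-1.53 to 1.68) and Cyp51 by -0.12 (-1.61 to 1.37). The intervals of Idi1 and Cyp51 include differences of more than a doubling either way.

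**Figure D5:**
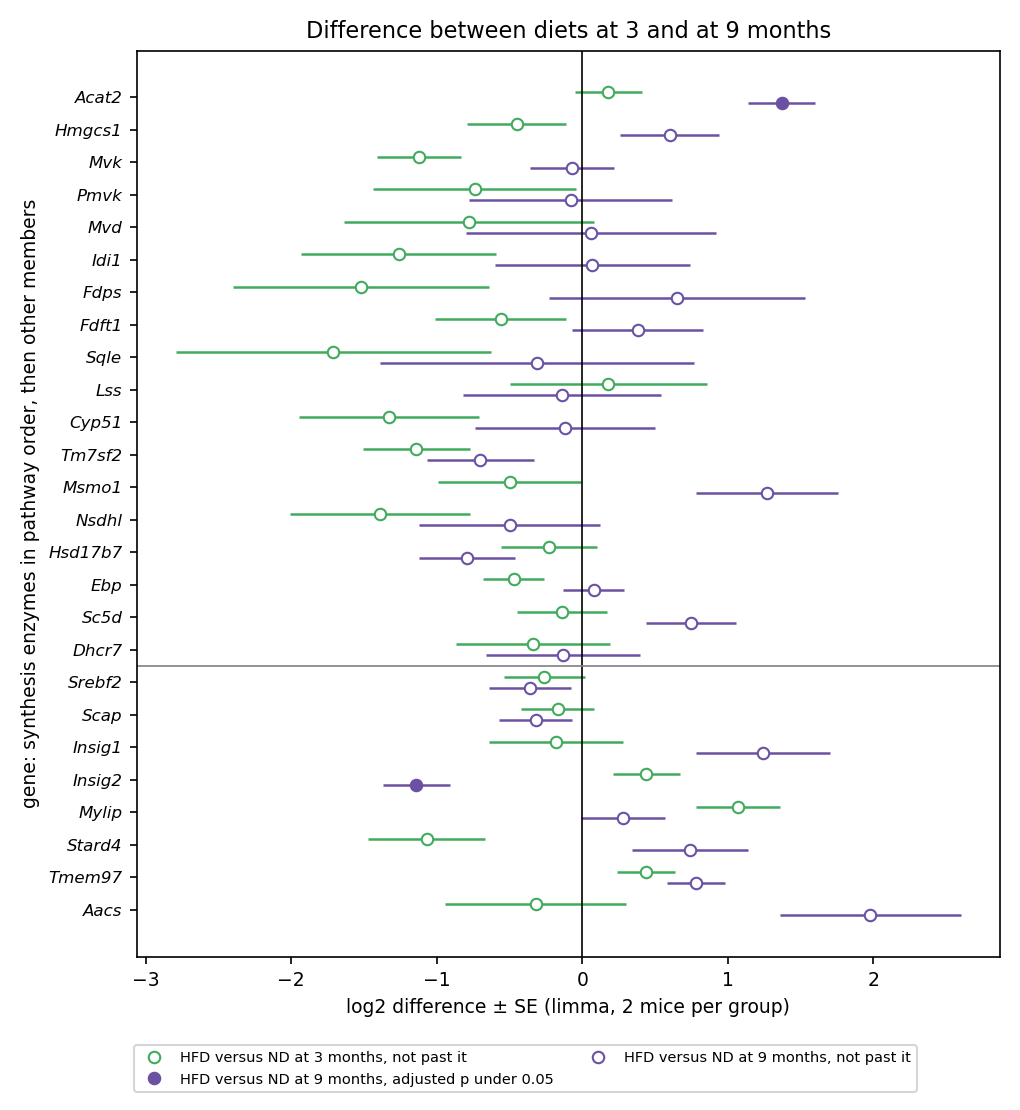
Log2 difference of HFD against ND for each of the 26 members at 3 and at 9 months, with error bars of 1 SE from the limma fit over all 8 arrays. At 3 months 21 of 26 points lie below 0 and none passes the test; at 9 months Acat2 is called higher and Insig2 lower.

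Both calls at 9 months depended on single arrays. That of Insig2 held in 1 of the 8 fits with an array left out, that without HFD 9 months mouse 1; in the other 7 the adjusted p reached up to 0.115, and the value lay between -1.36 and -0.91 over all 8. The call of Acat2 held in 4 of 8 and was lost without ND 3 months mouse 1 or 2, ND 9 months mouse 2 or HFD 9 months mouse 1, with values from 1.11 to 1.62 and adjusted p up to 0.0995. Of 5 lipid-associated macrophage markers 4 were called higher on HFD at 9 months, and their summed level was 3.31 to 3.51 on ND and 5.09 to 5.36 on HFD. The adipocyte markers Cfd and Fabp4 summed to 1.38 and 0.4 on ND and 3.46 and 4.77 on HFD. Fabp4 was called higher (3.24 ± 0.46, adjusted p = 0.0151), and Cfd differed by 3.7 ± 1.1 (adjusted p = 0.0907). The part of these markers in the differences of the members was not tested. The summed level of the hepatocyte markers, 1 of 10 called lower, was 11.98 to 12.01 on ND and 11.59 to 12.07 on HFD. Insig1 was called higher without HFD 9 months mouse 1, and Aacs without mouse 2. Both fits left 1 HFD mouse at 9 months, and more features were called over all as well.

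Whether the effect of diet differed between 3 and 9 months was tested as an interaction. By limma 0 of 26 members and 0% of the 20165 features passed; at an unadjusted p under 0.05 there were 1537 features (7.62%) and 6 members. The interaction was above 0 for 20 of 26, with a median of 0.89 against 0.06 over all features. It was farthest from 0, relative to its error, for Insig2 (-1.58 ± 0.33, adjusted p = 0.402). Acat2 (1.18 ± 0.33, adjusted p = 0.526), Stard4 (1.81 ± 0.57, adjusted p = 0.56) and Aacs (2.3 ± 0.88, adjusted p = 0.631) followed with positive values. The same term compares the differences of 9 against 3 months on HFD and on ND, which were smaller in size on HFD for 22 of 26 members. The median depended on the mice at 3 months: it was 0.22 without HFD 3 months mouse 1, 1.34 without mouse 2 and 0.54 without ND 3 months mouse 2.

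Other genes around the pathway, taken from lists chosen with the members, gave few calls. Of 13 tested genes of the isoprenoid branches, 8 LXR and efflux genes and 12 genes of sterol transport and esterification, 0 were called in any of the 5 comparisons. On ND their median differences of 9 against 3 months were -0.19, -0.37 and 0.02. Of 10 genes of SREBP processing and sterol-regulated degradation, with a median of -0.15 there, 1 was called. This was Srebf1, which encodes SREBP1, the relative of SREBP2 that drives fatty acid synthesis. It read 2.89 and 2.15 in the ND mice of 3 months and -1.93 and -1.78 in those of 9 months, and fell by 4.37 ± 0.27 (adjusted p = 0.00697). At 9 months Srebf1 was higher on HFD (0.87 and 0.92), a rise of 2.75 ± 0.27 (adjusted p = 0.00758). Fbxw7, part of a ubiquitin ligase that degrades active SREBPs, fell there by 1.81 ± 0.29 (adjusted p = 0.0215). Of the clock genes, Dbp, Bhlhe40 and Nr1d2 were called higher and Arntl lower on HFD than on ND at 9 months.

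A few members had more than 1 probe, and these did not always go together. The second probe of Srebf2, above background on 7 of 8 arrays, gave 0.79 for diet at 3 months and 0.5 for 9 against 3 months on ND. The probe used gave -0.26 and -0.53, so the direction of Srebf2 in these comparisons is not settled. For Nsdhl the other probe gave 0.85 for diet at 9 months, where the probe used gave -0.5. For Mvk the other probe gave 0.11 in that comparison and the probe used -0.07. The other probes of Insig2, Stard4, Pmvk, Tm7sf2 and Hsd17b7 had the direction of the probe used in the 4 comparisons of groups.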

How the data were processed

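Liver RNA of 8 mice, 2 per group, had been hybridised to 1-colour arrays. The array files deposited by the authors come from Agilent Feature Extraction 10.7.1.1, per the submitters' processing notes; their processed signal is a background-subtracted intensity, per the file headers, and their flags for spots above background are other deposited values, 0 or 1 per spot. The value table deposited by the authors holds log2 values that rank each array as its median signal does. The centring of these values is unstated. Their column medians were 7.18 to 7.2, and they served as an alternative.

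Spots flagged as outliers and 3671 control spots were left out. The log2 processed signal minus each array's 75th percentile was averaged per probe. A probe entered if both arrays of some group had it well above background (25801 probes). The brightest stood for its gene, or for its systematic name where no symbol was matched (20165 features). Symbols come from a RefSeq table of GRCm38.p6, matched through the systematic name in the array files (19752 symbols matched by 26056 probes). Of the 20165 features 12885 had a gene symbol. The array annotation uses mm9, so only the promoter table's own coordinates are given.

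limma 3.58.1 in R 4.3.3 fitted the 4 group means (residual df 4, prior df 2.33), with Benjamini-Hochberg adjustment over all features and calls at an adjusted p under 0.05. A run of the method on simulated data drew the noise of each feature separately. It therefore does not cover genes that vary together, as the members did. Replicates are separate mice per the labels, and 2 per group limit the precision. All members were named, and of each other list up to 4 called genes with the smallest p, or counts. Members, lists and motifs were chosen with earlier results of these data known. Alternatives were other scalings, background correction (normexp, offset 50), the value table, other filters, probe means, trended robust moderation, fits of only the arrays compared, a replicate block and leaving out each array. Figures used matplotlib 3.10.9 under Python 3.11.15.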

Additional observations from a re-analysis of the deposited data

Results flagged for a closer look

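Insig2 was higher on HFD than on ND in both mice at 3 months and lower in both at 9 months. The difference between these effects was -1.58 ± 0.33 by limma's interaction term and did not pass adjustment over all features (adjusted p = 0.402). The same term, -1.58, compares its change with time, which was toward higher values on ND and lower values on HFD, without overlap on either diet. Stard4 went the opposite way, lower on HFD at 3 months and higher at 9 months without overlap, with a term of 1.81 ± 0.57 (adjusted p = 0.56). Each group held 2 mice, so no single mouse could be tested as standing apart from its group.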

How the results depend on the processing

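The median of the members for 9 against 3 months on ND lay between -2.48 and -1.82 with 1 array left out and between -2.07 and -1.8 under the other 10 settings. The number called there was 4, all lower, and was less stable. It was 7 with normexp, 8 with probes above background on all arrays and 10 with trended robust moderation. It was 2 with only the arrays compared (Insig1 and Aacs) and 0 without the filter on dim probes. Over all features 120 were called lower, and 144, 154 (of 15934), 208, 82 and 2 (of 37084) under these settings in the same order. With quantile normalization 3 members were called, and 3 with the 75th percentile over probes above background on all arrays, in both without Insig1. The value table gave 5, without Msmo1 and with Hmgcs1 and Stard4 added. Over all features 85, 64 and 123 were called lower in these. With the replicate number as a block 0 members were called, and 20 features were called lower over all. Over all features, same-numbered mice of different groups did not deviate together (correlations of -0.0181 to 0.137), and the labels name separate mice. Among the members, however, 24 of 26 were higher in mouse 2 than in mouse 1 on both diets at 3 months. The replicate number is also the array's column on the slide. The medians within each column were chosen after seeing the data. For diet at 3 months, 1 member was called lower with normexp, where 871 features were over all. With only the arrays compared 1 was called higher, where 1162 features were, against 0 members in the main fit. For diet at 9 months, 0 members were called without the filter, where 84 features were called higher and 190 lower over all. With only the arrays compared 0 members and 0 features were called, against 2 members in the main fit. Leaving out 1 array gave 0 to 1 calls for diet at 3 months, 0 to 2 at 9 months, 0 to 0 for the interaction, 0 to 4 for time on ND and 0 to 2 for time on HFD. The medians then ran from -0.92 to 0.08, -0.12 to 0.23, 0.22 to 1.34, -2.48 to -1.82 and -1.62 to -0.63, in the same order. The interaction needs all arrays, so a fit of only the arrays compared was not run for it. Over all features, calls for time on ND (209) ranged from 0 to 340, for diet at 3 months (1045) from 0 to 2780, for diet at 9 months (1670) from 0 to 2505 and for time on HFD (2) from 0 to 1933. Of the values of single members under all settings, 2164 kept direction and side of the threshold, 53 lost and 33 gained a call, and 64 changed sign where neither value was called. The cause of these changes was not tested, beyond the fewer arrays or other set of features that a setting has by construction. With 2 mice per group, a difference smaller than the gap between mice could not be detected.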
